A study of Mus musculus with 6 samples.

Results

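Chemokines and inflammatory cytokines were followed in the mammary glands of Elf5 knockout (KO) and wild-type mice. The list holds 33 genes: 25 chemokines, 2 chemokine receptors and 6 cytokines. The list was written down by name, and each gene was read from the probe set with the highest mean over the 6 arrays among those annotated to a single gene. A total of 32 genes could be read, of 18193 genes with such a probe set. Ccl19 could not, because its probe set is annotated to several genes at once. RNA from whole glands of 3 Elf5 KO and 3 wild-type mice was hybridised to 6 one-colour Affymetrix mouse arrays, 1 array per sample. The labels put the glands at pregnancy day 17, but the design text of the series names lactation day 1, so no stage is assumed. They name no allele, Cre driver, strain or age, and the groups differ in the labels by genotype alone. Elf5 encodes an ETS family transcription factor of the luminal epithelium. The design sets the transcripts of glands with disrupted Elf5 against those of intact animals.

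Chemokines are small secreted proteins that bind G protein-coupled receptors and draw leukocytes along a gradient. They are named CC or CXC after the spacing of conserved cysteines near the amino terminus, and Cx3cl1 has a spacing of its own. Some are made steadily by stromal cells and place lymphocytes and macrophages in tissues. Others are induced by NF-kB or interferon signalling during inflammation, as are the cytokines Tnf, Il1b and Il6. In the mammary gland, macrophages and eosinophils recruited by chemokines take part in duct growth, and neutrophils enter during mastitis and after weaning.

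A few facts of the 6 arrays bear on all results. Elf5 read 5616, 4361 and 3128 in KO arrays 1, 2 and 3, against 12011, 8044 and 7244 in wild-type arrays 1, 2 and 3. It differed by -1.06 ± 0.32 on the log2 scale of the fit described below (SE; adjusted p = 0.109, or 0.0151 with replicate numbers as a block). The labels do not place this probe set inside or outside the disrupted stretch, so it does not check for intact transcript. Control probe sets at both ends of Gapdh give a 3' over 5' ratio that rises with RNA degradation. It was 0.802, 3.89 and 13.6 in KO arrays 1, 2 and 3, against 0.833 to 1.09 in wild type (log2 difference 1.92, exact permutation p = 0.4, two-sided, where 3 against 3 arrays give no p under 0.1). KO array 1 and the 3 wild-type arrays are called the low-ratio arrays below, and differences over them are given for named genes where they move by over 1.5 times. The split rests on Gapdh, since the same ratio of Actb was 1.58, 1.87 and 21.0 in KO arrays 1 to 3, against 1.20 to 2.04 in wild type, and set only KO array 3 apart. Because whole glands were used, a change in the number of cells of a type and a change in RNA per cell cannot be told apart. The mammary label was borne out by the milk proteins Csn2, at 7330 to 12009 in KO glands and 9008 to 27414 in wild type, and Wap, at 6506 to 9611 in KO glands and 6851 to 20173 in wild type.

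The deposited signals carry no detection calls, so background was set from 81 probe sets of olfactory, vomeronasal and trace amine receptors, which belong to other tissues. A gene was above background on an array when its signal passed the 95th percentile of these probe sets there, which lay at 33.9, 17.5 and 22.9 in KO arrays 1 to 3, against 51.1, 29.9 and 28.6 in wild-type arrays 1 to 3. By this measure 21 of the 32 genes were above background on all 3 KO arrays, 19 on all 3 wild-type arrays and 18 in both groups. Over all genes, between 59.5% and 72.3% passed on a single array. This is a looser measure than all 3 arrays of a group, for which no share over all genes was taken. Ccl3, Cxcl2, Cxcl5, Il6 and Il10 were above background on 0 of 6 arrays. Ccl2, Ccl7, Cxcl10 and Tnf passed on some arrays of each group, and Ccl4 on 1 KO and all 3 wild-type arrays. These 10 genes read 0.5 to 104.8 and fell below the 40th percentile of the mean log2 signal, so they were not tested. They include Tnf and Il6, which are induced in acute inflammation. The plot of signals by array shows all 32 genes against these limits.

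**Figure D1:**
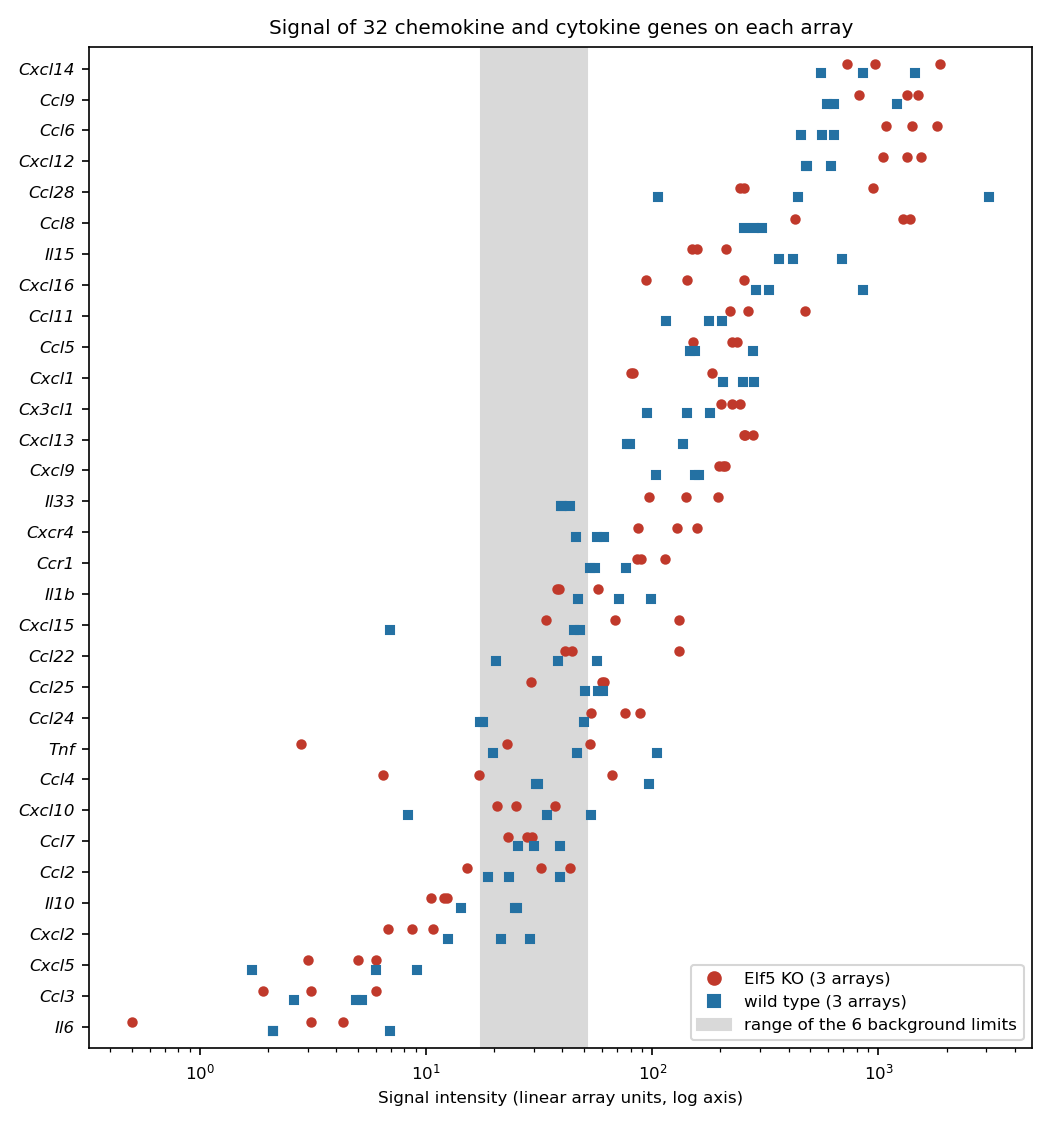
Signal intensity (linear array units on a log axis) of the 32 genes on each array, with Elf5 KO as circles above and wild type as squares below in each row, sorted by mean signal. The grey band spans the 6 background limits, 17.5 to 51.1. Cxcl14, Ccl9, Ccl6 and Cxcl12 lie at the top, and Il6, Ccl3 and Cxcl5 lie left of the band on all arrays.

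The remaining 22 genes entered a fit of log2(signal + 16) over all 10916 genes tested, with limma and Benjamini-Hochberg adjustment at 0.05. In the unpaired fit 0 of the 22 passed, where 1.24% of all genes did, and 11 of 22 had an unadjusted p under 0.05, where 21.8% of all genes did. Arrays with the same replicate number deviated together, so values from a second fit that blocks on the number (the paired fit) stand beside it. There, 6 of the 22 rose in KO glands (Ccl6, Ccl8, Ccl24, Cxcl12, Cxcl13 and Il33), where 7.70% of all genes rose, and 2 fell (Cxcl1 and Il15), where 4.53% fell. Of the 22 genes, 16 (72.7%) had a higher mean in KO glands, where 53.9% of all genes did. Their median log2 difference was 0.60, and that of all genes tested was 0.06. The 3 KO values lay above the 3 wild-type values for 11 genes, where 16.7% of all genes did so, and below them for 3 genes, where 10.6% did so. Ccl22, Ccl24, Cxcl15 and Il33 passed the filter on low signals through their KO values, with wild-type means below it. These counts over 22 genes thus lean toward KO. Of the members that the filter left out, only Ccl2 had a higher mean in KO glands, by 0.08, and the others were lower. With no filter, the members' median log2 difference was 0.10, against -0.06 for all genes. The share and median above thus describe the genes tested and not the whole list.

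Single arrays decided these counts. Without KO array 1, 5 of the 22 genes passed in the unpaired fit, where 11.0% of all genes did: Cxcl12, Cxcl13, Cxcr4 and Il33 rose and Cxcl1 fell. That fit leaves KO arrays 2 and 3 with their high Gapdh ratios, so genotype and that ratio cannot be told apart in it. Without any other array 0 passed. The paired fit called 8 of the 22 genes without number 1, where 16.6% of all genes were called. Ccl6 and Ccl8 were then no longer called (adjusted p = 0.0509 and 0.0601), and Cxcr4 and Cxcl16 were (0.0259 and 0.0355). Without number 3 it called 9, where 15.4% of all genes were called. Ccl24 and Cxcl1 were then no longer called (adjusted p = 0.0516 and 0.0551), and Ccl9, Ccl11 and Cxcl15 were (0.0451, 0.0106 and 0.0318). Without number 2 it called 0, where 0.174% of all genes were called. The plot of differences shows the 22 genes in order.

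**Figure D2:**
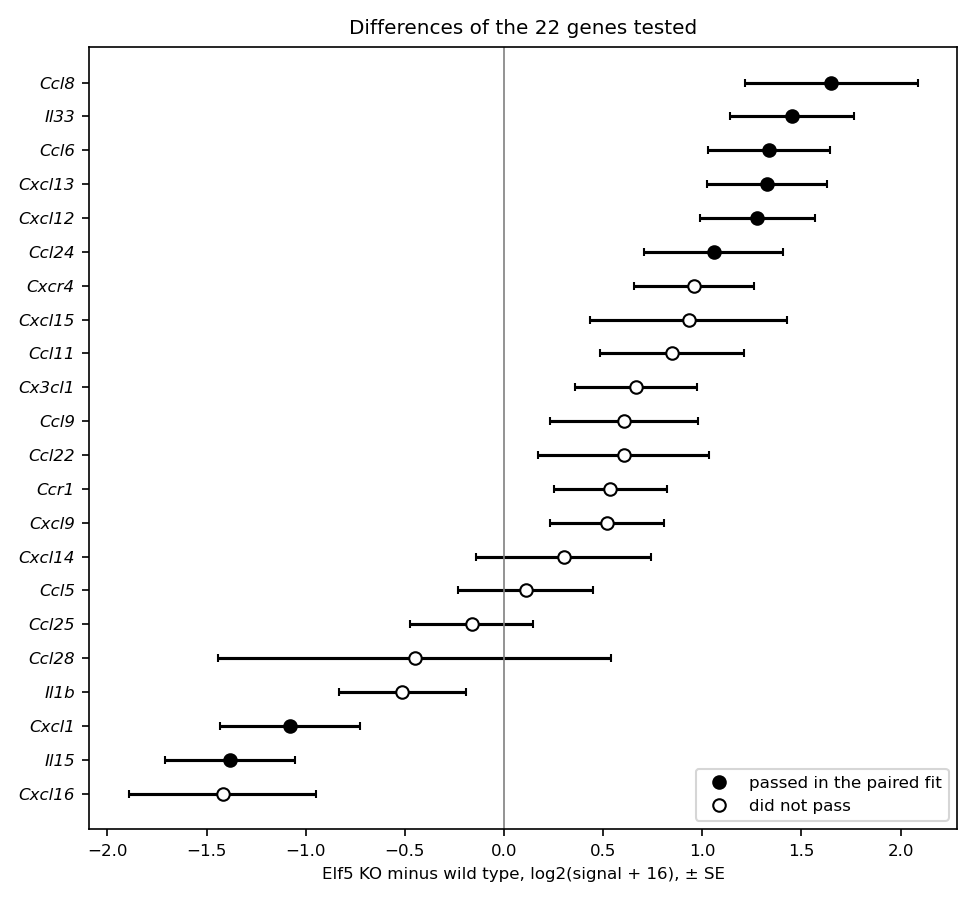
Difference of Elf5 KO minus wild type on the log2(signal + 16) scale for the 22 genes tested, with moderated standard errors (3 arrays per group). Filled points passed in the paired fit: 6 on the right, led by Ccl8 at 1.65, and Il15 and Cxcl1 on the left.

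The starts of the genes that passed in the paired fit were read next. These genes did not all move the same way, since Cxcl1 and Il15 fell and the others rose. RefSeq (GRCm38.p6) promoter windows were matched for 23 of the 33 members, with 25 windows in all. The stretch read is the 250 bases before the start. Il15 and Ccl24 had no entry, and Il33 had 2 windows, which are described and not printed. The windows printed below are those of Cxcl1 (chr5:90890995-90891244, plus strand), Ccl6 (chr11:83593088-83593337, minus strand), Ccl8 (chr11:82114935-82115184, plus strand), Cxcl12 (chr6:117168285-117168534, plus strand) and Cxcl13 (chr5:95956689-95956938, plus strand), each 5′ to 3′ on the gene's strand. Capitals mark matches to an NF-kB motif, GGGANTTTC, or to an ETS motif, GGAAGT, each searched on both strands.
Cxcl1: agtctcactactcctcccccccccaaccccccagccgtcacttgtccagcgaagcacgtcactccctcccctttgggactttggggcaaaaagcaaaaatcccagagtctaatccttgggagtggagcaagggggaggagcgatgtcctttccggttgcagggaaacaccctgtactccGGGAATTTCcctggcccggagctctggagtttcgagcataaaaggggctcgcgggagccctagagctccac
Ccl6: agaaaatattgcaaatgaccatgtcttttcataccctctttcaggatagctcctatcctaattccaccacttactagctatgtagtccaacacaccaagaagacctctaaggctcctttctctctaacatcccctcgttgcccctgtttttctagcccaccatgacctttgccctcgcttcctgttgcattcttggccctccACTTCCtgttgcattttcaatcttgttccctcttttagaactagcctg
Ccl8: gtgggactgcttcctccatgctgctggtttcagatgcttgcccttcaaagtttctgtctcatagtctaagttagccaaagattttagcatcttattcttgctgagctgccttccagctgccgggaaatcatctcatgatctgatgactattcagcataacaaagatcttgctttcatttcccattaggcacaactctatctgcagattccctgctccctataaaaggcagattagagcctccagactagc
Cxcl12: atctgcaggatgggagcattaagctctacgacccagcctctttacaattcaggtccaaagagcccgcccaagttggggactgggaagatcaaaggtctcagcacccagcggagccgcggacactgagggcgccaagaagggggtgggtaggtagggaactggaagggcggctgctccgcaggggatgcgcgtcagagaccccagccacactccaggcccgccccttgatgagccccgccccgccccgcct
Cxcl13: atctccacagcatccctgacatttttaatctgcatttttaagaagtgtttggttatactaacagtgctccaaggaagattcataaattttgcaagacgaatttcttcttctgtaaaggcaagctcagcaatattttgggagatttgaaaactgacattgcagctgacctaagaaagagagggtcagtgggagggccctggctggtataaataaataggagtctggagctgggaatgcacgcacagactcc

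In these windows, Cxcl1 held the NF-kB motif 71 to 63 bases before its start, and Ccl6 held the ETS motif on the opposite strand, 48 to 43 bases before its start. Ccl8, Cxcl12, Cxcl13 and both Il33 windows held neither. Across the 25 windows of members, 4 held the NF-kB motif, those of Cxcl1, Cxcl2, Cxcl9 and Il6, and it was found in 0.941% of 32851 windows of all genes. Of these 4 genes, Cxcl2 and Il6 were not above background on any array, Cxcl9 did not pass and Cxcl1 fell in the paired fit. The ETS motif was in 8 of the 25 windows, those of Ccl3, Ccl6, Ccl9, Ccl22, Cxcl9, Cxcl10, Il1b and Tnf, and in 19.7% of all windows. No matches of the 2 motifs overlapped each other. GC content was 59.2% in the Cxcl1 window, 45.2% in Ccl6, 44.8% in Ccl8, 64.4% in Cxcl12 and 42.0% in Cxcl13. A match describes these letters and not a bound site.

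CC chemokine genes lie in clusters on mouse chromosome 11, and Ccl6 and Ccl8 were the members there that rose in the paired fit. Ccl6, a chemokine of macrophages and other myeloid cells in mice, read 1822, 1082 and 1403 in KO arrays 1, 2 and 3, against 565, 455 and 634 in wild-type arrays 1, 2 and 3. All KO arrays were above all wild-type arrays, and the difference was 1.34 ± 0.31 on the log2 scale (SE; adjusted p = 0.0627, paired 0.0188). A second Ccl6 probe set, of a type whose name marks possible cross-hybridisation, differed by 1.69. Its neighbour Ccl9, which in mice attracts cells through the receptor Ccr1, read 1503, 817 and 1335 in KO arrays, against 634, 595 and 1205 in wild type. The groups overlapped through wild-type array 3, and the difference of 0.61 ± 0.37 did not pass in either fit (adjusted p = 0.354, paired 0.184). A second Ccl9 probe set went the other way, by -0.67, with 61.0 in KO array 3. Of the other members in this cluster, Ccl3 and Ccl4, chemokines of activated macrophages and T cells, were not tested. Ccl5, made by T and NK cells, read 152 to 238 in KO glands and 147 to 278 in wild type, a difference of 0.11 ± 0.34.

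Ccl8, a ligand that in mice is made by tissue macrophages and draws T cells through Ccr8, read 1379, 428 and 1286 in KO arrays 1, 2 and 3, against 255, 305 and 283 in wild-type arrays. KO arrays 1 and 3 stood far above wild type and KO array 2 only a little above it. The difference of 1.65 ± 0.43 had an adjusted p of 0.0827, and 0.0314 in the paired fit, and it was 2.23 in the low-ratio arrays. The monocyte attractants Ccl2 and Ccl7, members of the same cluster, read 15.2 to 43.3 in KO glands and 18.8 to 39.1 in wild type. Ccl11 (eotaxin), which draws eosinophils through Ccr3, read 265, 475 and 219.8 in KO arrays 1 to 3, against 115, 178 and 203 in wild-type arrays. The groups did not overlap, but KO array 3 was close to wild-type array 3, and the difference of 0.85 ± 0.36 did not pass (adjusted p = 0.213, paired 0.107).

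Ccl24 (eotaxin-2), a second ligand of Ccr3, lies elsewhere in the genome. It read 88.4, 75.3 and 53.5 in KO arrays 1 to 3, against 49.6, 17.2 and 17.8 in wild-type arrays. It was above background on all 3 KO arrays and on none in wild type, so its signal was at least 2.01-fold higher in KO glands. Its fitted difference of 1.06 ± 0.35 passed in the paired fit (adjusted p = 0.0417) and not in the unpaired fit (0.135). Ccl24 passed the filter on low signals through its KO values, so its KO mean had to be the higher one. Ccl22, a ligand of Ccr4 made by dendritic cells and macrophages, read 41.0, 44.3 and 131 in KO arrays, against 38.3, 20.4 and 57.1 in wild type. Its difference of 0.60 ± 0.43 rested on KO array 3 and was 0.12 in the low-ratio arrays. Ccl25, the thymus and gut ligand of Ccr9, read 29.1 to 61.0 in KO glands and 50.1 to 60.2 in wild type (-0.16 ± 0.31).

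Ccl28 is made by mucosal and mammary epithelium and draws IgA plasma cells into the lactating gland through Ccr10. Its difference had the widest standard error of the 22 genes tested, and it read 948, 255 and 245 in KO arrays 1 to 3, against 3087, 106 and 442 in wild-type arrays. Both groups were high on array 1, and the groups overlapped throughout. The difference of -0.45 ± 0.99 did not pass (adjusted p = 0.812, paired 0.549). Its 2 dimmer probe sets differed by 0.10 and 0.04 and were also highest on array 1 of each group, at 199 and 394 in the KO and 192 and 308 in wild type. In the low-ratio arrays the Ccl28 difference was 0.79.

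Among CXC chemokines, Cxcl12 and Cxcl13 rose in the paired fit. Cxcl12, the stromal ligand of Cxcr4 that holds leukocytes and progenitors in tissues, read 1342, 1542 and 1043 in KO arrays 1 to 3, against 619, 484 and 479 in wild-type arrays. Every KO array was at least as high as 1043 and no wild-type array passed 619. It differed by 1.28 ± 0.29 (adjusted p = 0.0613, paired 0.0216), and a second probe set by 1.17. The dimmest Cxcl12 probe set read 1.0 to 27.2 on the 6 arrays. Cxcl13, the ligand of Cxcr5 that gathers B cells into follicles, read 279, 256 and 253 in KO arrays, against 79.7, 77.5 and 137 in wild type. The KO arrays were nearly equal, and all lay above wild type (1.33 ± 0.30, adjusted p = 0.0613, paired 0.0239). The other Cxcl13 probe set differed by -0.36 and did not show the rise. It read 220.2, 182 and 37.7 in KO arrays 1 to 3, against 128 to 183 in wild type, and overlapped. Cxcl14, an epithelial and stromal chemokine, had the highest mean log2 signal of the list, at 724, 1867 and 962 in KO arrays and 854, 1450 and 556 in wild type. The groups overlapped, and number 2 was highest in both (0.30 ± 0.44, adjusted p = 0.710).

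Of the neutrophil attractants, Cxcl1 fell in the paired fit and Cxcl2 and Cxcl5 stayed at background. Cxcl1 read 183, 80.3 and 82.4 in KO arrays 1 to 3, against 283, 206 and 252 in wild-type arrays. All KO arrays were below wild type, KO array 1 the least, and the difference was -1.08 ± 0.35 (adjusted p = 0.129, paired 0.0422). It shrank to -0.39 in the low-ratio arrays. The Cxcl1 probe set is of a type whose name marks possible cross-hybridisation, as is a second one that differed by -0.80. The dimmest Cxcl1 probe set, without such a mark, differed by -0.67. It overlapped, at 39.6, 16.6 and 6.7 in KO arrays 1 to 3, against 36.9 to 41.1 in wild type. Cxcl2 read 6.8 to 10.7 in KO glands and 12.5 to 28.7 in wild type, without reaching background, so no fold is given. Cxcl5 read 3.0 to 6.0 in KO glands and 1.7 to 9.1 in wild type. Cxcl15 (lungkine), a mouse chemokine known from lung epithelium, read 33.8, 131 and 68.4 in KO arrays, against 6.9, 47.6 and 45.2 in wild type. The groups overlapped (0.93 ± 0.50, adjusted p = 0.294, paired 0.0604).

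The interferon-induced ligands of Cxcr3 gave no call. Cxcl9 read 196 to 210 in KO glands and 104 to 160 in wild type, a difference of 0.52 ± 0.29 without overlap (adjusted p = 0.312, paired 0.222). Cxcl10 was near background, at 20.6 to 36.9 in KO glands and 8.3 to 53.6 in wild type. Cxcl16 and Cx3cl1 are tethered to the membrane and can be shed as soluble ligands. Cxcl16, the ligand of Cxcr6, read 142, 255 and 93.5 in KO arrays, against 286, 327 and 852 in wild-type arrays. The KO arrays were all lower, and wild-type array 3 stood far above the rest (-1.42 ± 0.47, adjusted p = 0.136, paired 0.0799). A second Cxcl16 probe set, with 130 to 313 in KO glands and 131 to 521 in wild type, differed by -0.16 and overlapped. Its name also marks possible cross-hybridisation. Cx3cl1 (fractalkine), the ligand of the macrophage receptor Cx3cr1, read 201 to 244 in KO glands and 94.4 to 180 in wild type. Its difference of 0.66 ± 0.31 did not pass (adjusted p = 0.242, paired 0.127). A dimmer second Cx3cl1 probe set went the other way, by -0.49, at 5.1 to 79.9 in KO glands and 16.8 to 99.4 in wild type. The dimmest Cx3cl1 probe sets differed by -0.03 and 0.03.

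Both receptors of the list were higher in KO glands without passing. Cxcr4, the receptor of Cxcl12, read 86.3, 157 and 128 in KO arrays, against 61.2, 56.6 and 46.1 in wild-type arrays. The groups did not overlap, and the difference was 0.96 ± 0.30 (adjusted p = 0.122, paired 0.0609), or 0.54 in the low-ratio arrays. Ccr1, a receptor of monocytes and neutrophils for Ccl3, Ccl5 and Ccl9, read 85.2 to 114 in KO glands and 52.8 to 76.3 in wild type (0.54 ± 0.28, adjusted p = 0.291, paired 0.178). A much dimmer second Ccr1 probe set differed by -0.18.

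Il33 and Il15 passed in the paired fit, in opposite directions. Il33, an alarmin held in the nuclei of stromal, endothelial and epithelial cells, read 141, 96.3 and 196 in KO arrays 1 to 3, against 39.8, 39.3 and 43.2 in wild-type arrays. The wild-type values were nearly equal, and each KO value was above all of them (1.45 ± 0.31, adjusted p = 0.0594, paired 0.0182). In wild type Il33 was above background on 2 of 3 arrays. Il33 also passed the filter on low signals through its KO values, so its KO mean had to be the higher one. Il15, which sustains NK cells and memory T cells, read 150, 212 and 157 in KO arrays, against 418, 687 and 363 in wild-type arrays. All KO arrays were lower, and number 2 was highest in both groups (-1.38 ± 0.33, adjusted p = 0.0671, paired 0.0189). Il1b, a product of activated myeloid cells, read 57.3, 38.7 and 37.7 in KO arrays, against 98.6, 46.8 and 70.8 in wild type, and overlapped (-0.51 ± 0.32, adjusted p = 0.364, paired 0.213). Tnf read 53.1, 22.7 and 2.8 in KO arrays, against 105, 19.8 and 46.5 in wild type. Il6 read 0.5 to 4.3 in KO glands and 2.1 to 6.9 in wild type. Il10, which restrains macrophages, read 10.5 to 12.4 in KO glands and 14.2 to 25.3 in wild type.

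**Figure D3:**
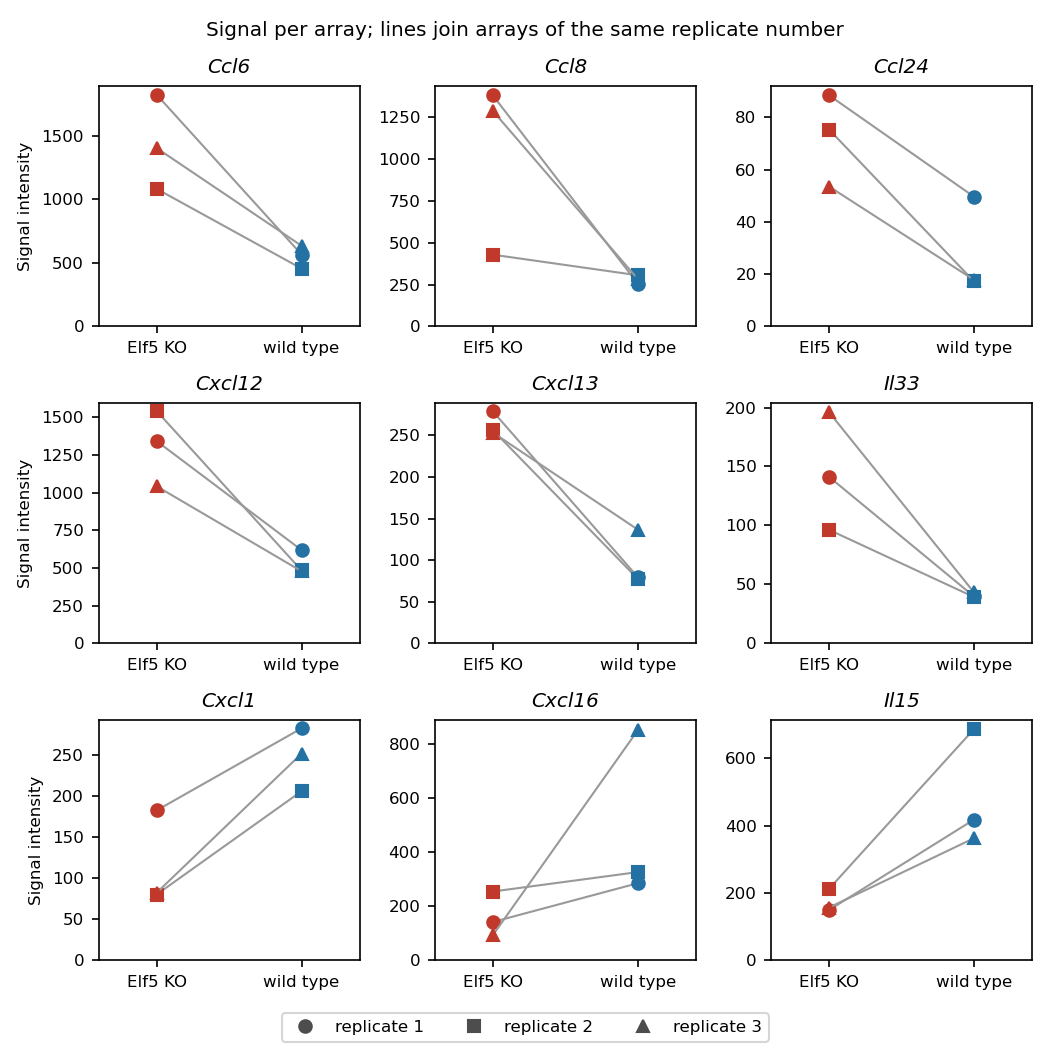
Signal intensity per array for 9 genes, with Elf5 KO on the left and wild type on the right of each panel and lines joining arrays of the same replicate number. The 3 lines run the same way in each panel, which is fixed in advance because the groups of these 9 genes do not overlap. The spread is widest for Ccl8 in KO glands (428 to 1379) and Cxcl16 in wild type (286 to 852).

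Other genes of the same pathways were read from lists written beside the members. Their counts stand against 1.24% of all genes called in the unpaired fit, and 7.70% higher and 4.53% lower in the paired fit. Of 12 further chemokines 11 had a probe set and 2 were tested. Pf4, a chemokine of platelets and megakaryocytes, read 712, 578 and 1076 in KO arrays, against 353, 348 and 415 in wild type, and rose in the paired fit (1.01 ± 0.31, adjusted p = 0.116, paired 0.0447). Cxcl17, a mucosal chemokine, differed by 1.16 ± 0.36 without passing (adjusted p = 0.114, paired 0.0691), and by 0.65 in the low-ratio arrays. Of 20 further chemokine receptors 7 were tested, 5 with a higher mean in KO glands, and 1 rose in the paired fit. This was Ackr2, a scavenger of inflammatory CC chemokines, at 155 to 186 in KO glands and 59.5 to 106 in wild type (0.97 ± 0.30, adjusted p = 0.112, paired 0.0453). Ccr2, the monocyte receptor of Ccl2, differed by 1.22 ± 0.39 and the endothelial chemokine binder Ackr1 by 0.67 ± 0.27, with adjusted p = 0.127 and 0.195. The eosinophil receptor Ccr3, to which Ccl11 and Ccl24 bind, and Ccr8, to which Ccl8 binds in mice, were not above background on any array.

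Receptors and antagonists of the member cytokines moved both ways. Of 14 listed 11 were tested, 1 rose in the unpaired fit, and 3 rose and 2 fell in the paired fit. Il1r1, the signalling receptor of interleukin 1, read 60.3, 183 and 141 in KO arrays, against 7.4, 26.9 and 15.2 in wild-type arrays. It was not above background in wild type, so its signal was at least 3.29-fold higher in KO glands (2.08 ± 0.41, adjusted p = 0.0471, paired 0.0121). It passed the filter on low signals through its KO values, so it had to differ, and its difference was 1.28 in the low-ratio arrays. The decoy receptor Il1r2 differed by 1.10 ± 0.29 and rose in the paired fit (adjusted p = 0.0815, paired 0.0395). The receptor antagonist Il1rn read 54.5, 41.0 and 21.5 in KO arrays, against 215, 89.3 and 78.8 in wild type, and fell in the paired fit (-1.31 ± 0.41, adjusted p = 0.115, paired 0.0234). Il1rn and Il2rb passed the filter through their wild-type values, as did Map3k14 among the NF-kB genes below. Their KO means thus had to be the lower ones. Of 18 NF-kB genes 15 were tested, 8 with a higher and 7 with a lower mean (median 0.08), and in the paired fit 1 rose and 1 fell. Both encode inhibitors of NF-kB: Nfkbie differed by 1.64 ± 0.57 (adjusted p = 0.143, paired 0.0136) and Nfkbib by -1.27 ± 0.34 (adjusted p = 0.0869, paired 0.0302), and in the low-ratio arrays by 0.90 and -0.72. The subunit gene Nfkb2 differed by -1.04 ± 0.39 (adjusted p = 0.168), and by -0.29 in the low-ratio arrays. Of 20 other cytokines 5 were tested and 2 rose in the paired fit. Il18 differed by 1.24 ± 0.28 (adjusted p = 0.0613, paired 0.0222), and the lymphotoxin subunit gene Ltb by 1.29 ± 0.33 (adjusted p = 0.0793, paired 0.0331). Il34, a ligand of the macrophage receptor Csf1r, differed by -0.33 ± 0.34 (adjusted p = 0.586), and by 0.28 in the low-ratio arrays.

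Markers of some cells that make or receive these factors were higher in KO glands, and those of dendritic, endothelial and epithelial cells were not on balance; the part of any of them in the results was not tested. The same shares of all genes apply to their calls, and 53.9% of all genes had a higher mean. All 10 fibroblast markers had a higher mean in KO glands, by a median of 1.49 on the log2 scale (low-ratio arrays, 1.55), 4 rose in the unpaired fit and 7 in the paired fit. Their summed signal was 25213 to 37818 in KO glands and 12473 to 19693 in wild type. Of 14 macrophage markers 13 were tested and 10 were higher on average in KO glands, by a median of 0.59 (low-ratio arrays, 1.10). The scavenger receptor Cd163 and the mannose receptor Mrc1 rose in both fits, by 1.93 ± 0.30 and 1.67 ± 0.29 (adjusted p = 0.0356 and 0.0446), and 5 markers rose in the paired fit. Cd14 was lower on every KO array (-0.80 ± 0.34) without passing. C1qa, C1qc and Adgre1 overlapped, with differences of -0.65 ± 0.83, -0.04 ± 0.51 and 0.01 ± 0.41. In the low-ratio arrays these 3 differed by 1.63, 1.02 and 0.86. The macrophage sum was 12249 to 18580 in KO glands and 9147 to 11750 in wild type. Mast cell and B and plasma cell markers tested had higher means in 5 of 5 and 6 of 6 genes, with medians of 1.04 and 0.90, 0 calls in the unpaired fit, and 2 and 3 rises in the paired fit. Their sums were 1463 to 3607 and 3920.2 to 6671 in KO glands, against 756 to 1201 and 1623 to 3657 in wild type. Kit made up most of the mast cell sum in KO arrays 2 and 3, at 2362.5 and 1243. It was 1 of the 2 genes listed for mast cells that rose in the paired fit (1.99 ± 0.86, adjusted p = 0.215, paired 0.0217). Its groups overlapped, its difference was 0.67 in the low-ratio arrays, and the cells behind its signal were not tested. The other gene was Cpa3, at 338 to 542 in KO glands and 141 to 250 in wild type, without overlap. Jchain made up most of the B and plasma cell sum on every array. Its groups overlapped, at 2740 to 5848 in KO glands and 1105 to 3174 in wild type. Jchain rose in the paired fit (0.94 ± 0.43, adjusted p = 0.240, paired 0.0332) and differed by 0.41 in the low-ratio arrays.

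Among 8 neutrophil markers on the array, S100a8 and S100a9 rose in both fits, by 1.64 ± 0.31 and 1.80 ± 0.32 (adjusted p = 0.0446 for both). Both are also made by monocytes. Of the others only Ngp and Ltf were tested. The neutrophil sum, 2881 to 8331 in KO glands and 5368 to 14195 in wild type, was mostly Ltf, which encodes lactoferrin, also a milk protein, and which overlapped between groups. Ltf differed by -1.06 ± 0.49 (adjusted p = 0.244, paired 0.0157), and by -0.083 in the low-ratio arrays. T and NK cell markers had higher means in 4 of 5 genes tested (median 0.43), with 1 rise in the paired fit and sums of 437 to 1339 in KO glands and 298 to 538 in wild type. Cd4 was not above background on any array. Dendritic cell markers had a higher mean in 1 of 5 (median -0.21), with 0 calls in either fit and sums of 292 to 635 in KO glands and 377 to 593 in wild type. Of these, Zbtb46 and Flt3 passed the filter on low signals through their wild-type values, so their KO means had to be the lower ones. Endothelial markers had a median of 0.01, 1 of 8 rose in both fits, and sums were 1283 to 1900.4 in KO glands and 1316 to 1429 in wild type. Adipocyte markers were higher in 5 of 5, with a median of 0.90, 2 rises in the paired fit and sums of 21634 to 28248 in KO glands and 15891 to 19862 in wild type. Epithelial markers had a median of -0.06, 1 rise in the paired fit and sums of 34552 to 39886 in KO glands and 34020.0 to 59927 in wild type.

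**Figure D4:**
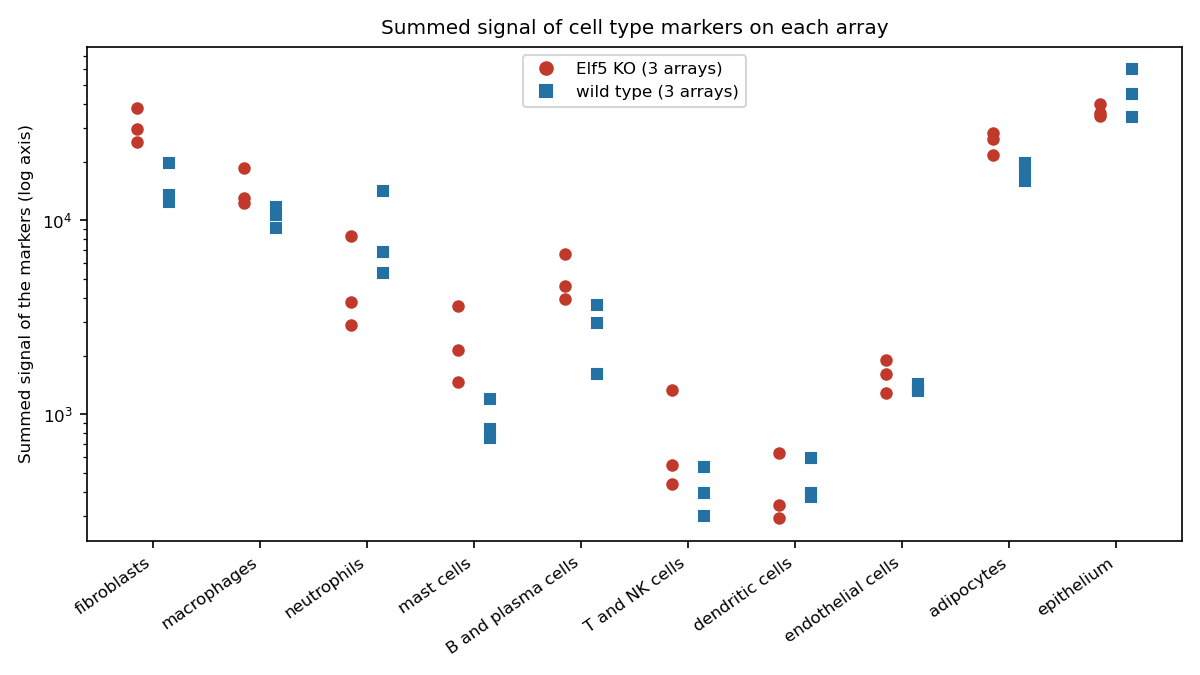
Summed signal of the markers of each cell type on each array (log axis), with Elf5 KO as circles on the left and wild type as squares on the right. The KO and wild-type sums do not overlap for fibroblasts, macrophages, mast cells, B and plasma cells and adipocytes, where all KO sums are higher, and overlap for the other types. The mast cell sums of KO arrays 2 and 3 are mostly Kit, and the B and plasma cell sums are mostly Jchain.

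With 1 KO array among the low-ratio arrays, its spread was taken to be that of wild type, and limma called 0 of the 22 genes there, with 8 at an unadjusted p under 0.05, where 9.28% of all genes were. The direction was the same as with all arrays in 19 of 22 genes, with Ccl25, Ccl28 and Cxcl14, at 0.10, 0.79 and -0.28, as the exceptions. The differences of Il33, Cxcl12 and Cxcl13 were 1.47, 1.33 and 1.41 there, about as large as with all arrays. Ccl6 and Ccl24 were larger, at 1.71 and 1.32, and Il15 and Cxcl16 differed by -1.56 and -1.50. The differences of Cxcl1, Cxcr4, Cxcl15 and Ccl22 were smaller, at -0.39, 0.54, 0.16 and 0.12, as was that of Il1b at -0.22, while those of Ccl5 and Ccl9 were larger at 0.26 and 0.95. The plot of both sets of differences shows these 2 kinds of gene.

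**Figure D5:**
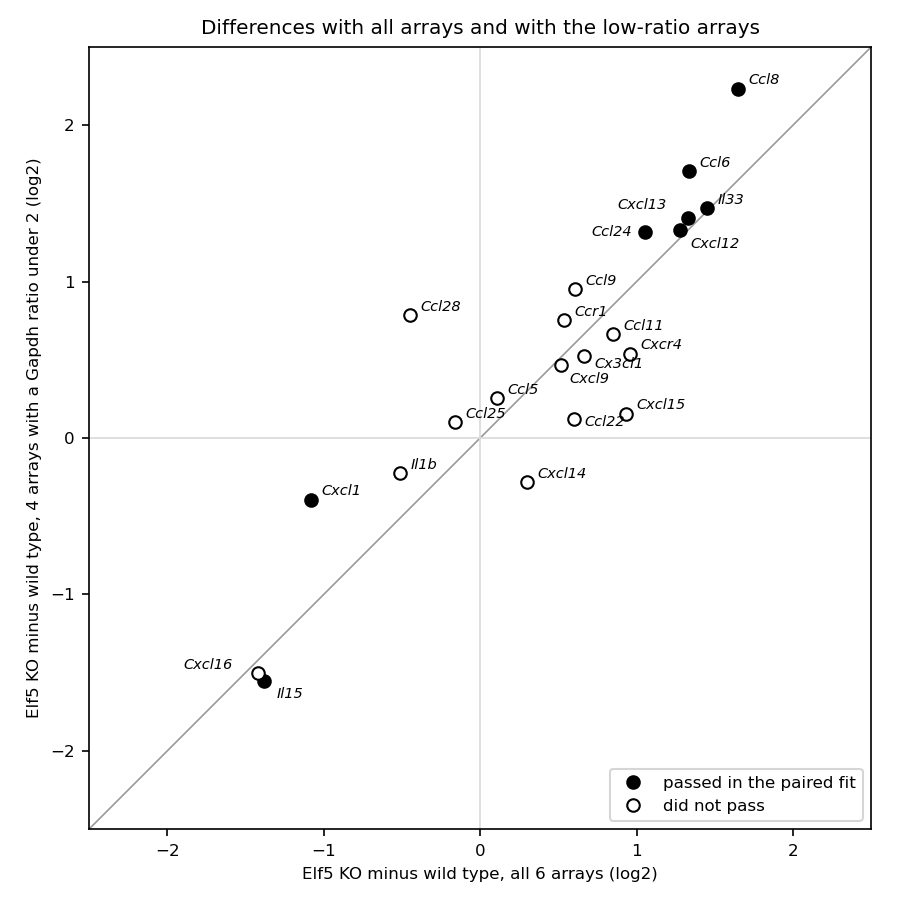
Difference of Elf5 KO minus wild type (log2) over all 6 arrays on the horizontal axis and over the 4 low-ratio arrays on the vertical axis for the 22 genes tested; the diagonal marks equal values. Il33, Cxcl12 and Cxcl13 lie near the diagonal, Ccl8 and Ccl6 above it, and Cxcr4, Cxcl15 and Ccl22 below it.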

How the data were processed

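RNA of 6 mammary glands was measured on 6 arrays. The authors deposited intensities on a linear scale for 45101 probe sets, made with MAS5 and affy, per the submitters' processing notes, with no version, role or order given. The mean of each column after trimming 2% at each end was 150. The genome build was not given in the sources used here.

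Probe sets with 1 gene in the platform annotation (34945) gave 18193 genes, each read from the probe set with the highest mean of log2(signal + 16). Genes under the 40th percentile of that mean (a signal of 43.8) were left out, which left 10916. The test was lmFit and eBayes with an intensity trend (limma 3.58.1, R 4.3.3), and p-values were adjusted by Benjamini-Hochberg across these genes. Errors of differences are moderated standard errors, and fold changes on this scale understate the change of dim genes. The scripts were tested on simulated data.

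The labels speak of animals and biological replicates, and do not say whether numbers pair them. Correlations of deviations from the group means were 0.46, 0.34 and 0.29 for numbers 1, 2 and 3, each over the limit of 0.1, so the paired fit is given. KO array 2 with wild-type array 3, which do not share a number, was also over that limit, at 0.15. The pairing is thus inferred from these same data. Values on every array are given for genes that pass a fit, whose groups lie apart by 1 or more, or that are the 6 brightest, and for further genes where they help. For each other pathway list the 3 genes with the smallest p are named; Ccr3, Ccr8, Cd4 and the named markers were chosen after their values were seen. The members and lists were chosen with earlier results of these data known. Alternatives tried were the block, the pseudocount (1 and 64), no filter, quantile normalization, no trend, each array left out, the low-ratio arrays, the Gapdh ratio as a covariate, the mean over probe sets and other background limits.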

Additional observations from a re-analysis of the deposited data

How the results depend on the processing

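All 9 genes that passed the paired fit or lay apart by 1 or more (Ccl6, Ccl8, Ccl24, Cxcl1, Cxcl12, Cxcl13, Cxcl16, Il15 and Il33) kept their direction in all 15 alternatives, which non-overlapping groups largely fix in advance. Their sizes moved by over 1.5 times with the mean over probe sets for Cxcl13 (1.33 to 0.49), Cxcl12 (1.28 to 0.79) and Cxcl16 (-1.42 to -0.79), with a pseudocount of 64 for Ccl24 (1.06 to 0.58) and Il33 (1.45 to 0.97), with the Gapdh covariate for Cxcl1 (-1.08 to -0.61), in the low-ratio arrays for Cxcl1 (-0.39), and without wild-type array 3 for Cxcl16 (-0.94). The count of list members called was 0 in the unpaired fit, 8 with the replicate block, and 0 to 5 with 1 array left out. The count over all genes was 135, and became 1335 with the replicate block, 85 with log2(signal + 1), 56 with no filter, 81 after quantile normalization, 69 with the mean over probe sets, 0 with the Gapdh ratio as a covariate, 0 in the low-ratio arrays, and 0 to 1206 with 1 array left out. The paired fit without 1 replicate number, an alternative added after seeing the data, called 19 to 1809 genes and 0 to 9 members. The members' median of 0.60 became 0.69 and 0.46 with pseudocounts of 1 and 64, and 0.40 with the mean over probe sets. That median was 0.55 to 0.77 with 1 array left out. With no filter it was 0.10, against -0.06 for all genes. Among the other bright genes, the difference of Ccl28 turned to 0.24 with the Gapdh covariate, 0.79 in the low-ratio arrays and 0.79 without wild-type array 1, and spanned -1.55 to 0.79 with 1 array left out. Cxcl14 turned to -0.28 in the low-ratio arrays, -0.082 without KO array 2 and -0.027 without wild-type array 3, and spanned -0.082 to 0.65 with 1 array left out. Ccl9 turned to -0.032 with the mean over probe sets. The causes were not tested. Members above background in a group numbered 22, and 19 and 20 with the other limits. Dim genes are limited by background, and 3 arrays per group limit the precision.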
